A study of Mus musculus with 6 samples.

Results

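Heat shock proteins and chaperones were examined on 6 expression arrays of mouse cerebral cortex. They were taken as every probe set to which the platform annotation gives 1 gene symbol beginning with Hspa, Hspb, Hspd, Hspe, Hsph, Hsp90 or Dnaj, without Hspbap1 and Hspbp1. This gave 169 probe sets for 70 genes, out of 45037 probe sets besides controls and 18193 genes. The 3 probe sets annotated to both Dnajc19 and its pseudogene were left out, and Hsp90ab1 was not analysed here. Total RNA of 3 arrays was described as wild type and that of 3 arrays as Egr1/Egr3 double knockout, in which the genes of a pair of activity-induced zinc finger transcription factors are targeted. The labels give no age, strain, sex, treatment or form of the mutant alleles, and do not say whether each array holds RNA of its own animal. The p-values therefore measure only the spread between these arrays. The comparison asks which of these transcripts differ between cortex labelled double knockout and wild type cortex.

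Chaperones bind unfolded proteins and help them to fold, or pass them on for degradation. Hsp70 proteins do so in cycles of ATP hydrolysis. J domain proteins, encoded by the Dnaj genes, deliver clients and start the hydrolysis, and Hsp110 proteins release the spent nucleotide so that the client is let go. Hsp90 proteins act on clients that are nearly folded, and small heat shock proteins hold unfolded ones. The cytosol, the endoplasmic reticulum (ER) and the mitochondrion each have their own set. The transcription factor Hsf1 induces the cytosolic set on heat or protein damage through heat shock elements, and the unfolded protein response induces the ER set, in part through ER stress elements. In neurons, specialised J domain proteins also serve synaptic vesicle traffic.

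The median signal of an array was 36.2 to 39.5 units, and precision is limited by having 3 arrays in each group. The brighter Egr3 probe set read 924 to 2669.6 in wild type and 339 to 507 in the arrays labelled double knockout. The Egr1 probe set read 1247 to 2054 and 2116.5 to 2657, so its signal goes against the label, and the group is called the labelled double knockout throughout. Whether these probe sets lie in a deleted part of either gene was not given in the sources used here. The title of double knockout replicate 1 names no genotype, and its group was taken from its description. Double knockout replicate 2 was the only array with a high Xist signal (3140, against at most 42.5), and the spiked control bioB of wild type replicate 1 read 0.408 of the median of the others. Gapdh controls, a sign of RNA quality, had 3'/5' ratios of 0.806 to 0.873 in wild type and 0.881 to 0.9497 in the labelled double knockout. Those of the Actb controls overlapped, at 1.58 to 1.95 in wild type and 1.68 to 1.89 in the labelled double knockout. Cortical neuron markers (9 of 10 measured) summed to 9054 to 11638 and 10385 to 14222. Choroid plexus markers (7 of 8) summed to 11057 in wild type replicate 3 and 4797 in double knockout replicate 1, and to at most 439 elsewhere. Without Ttr, the brightest of them, wild type replicate 3 summed to 711 and every other array to at most 99.8. Microglia markers (11 of 12) summed to 4247 to 5108 and 3160 to 4144, lower in the labelled double knockout without overlap, also without Csf1r, the brightest of them (2707 to 3358 against 1840 to 2631). The sums of the other lists that separated the groups overlapped once their brightest gene was left out. For endothelial and mural cells (12 of 12) they were 2132 to 2556 against 1785 to 2086, and 1086 to 1448 against 1239 to 1361 without Rgs5. For striatum (6 of 8) they were 1074 to 1738 against 915 to 1060, and 789 to 1035 against 737 to 814 without Penk. For oligodendrocytes (9 of 10) they were 20400 to 21639 against 21920 to 27172, and 12412 to 14248 against 11760 to 17510 without Mbp. The astrocyte sum (10 of 10) overlapped, at 15634 to 18793 against 17759 to 17868, but single markers differed. Of the 10, 3 separated the groups downwards and 1 upwards (10.7% and 11.5% of all tested probe sets). In the limma test described below 1 of them passed, as lower (1.02% of all tested probe sets passed). Aqp4 read 958 to 972 against 392 to 592, and Slc1a3 read 1014 to 1071 against 1220 to 1491. No marker of these lists lay under 16 units on every array. The part of these differences in the results was not tested, and fewer cells of a type and less RNA per cell cannot be told apart in tissue RNA.

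Most chaperone transcripts differed little between the groups, and the few that passed the test were lower in the labelled double knockout. Of the 169 probe sets, 128 for 58 genes were tested, having a mean log2 signal above the median of all probe sets. A limma fit over all 22518 tested probe sets called 3 of the 128 lower, 1 each for Hspa4, Hsph1 and Hspa1b (2.34%), and 0 higher, at a Benjamini-Hochberg adjusted p under 0.05. Over all tested probe sets the same fit called 1.02%, of which 0.591% lower and 0.426% higher. At an unadjusted limma p under 0.05 there were 16 chaperone probe sets lower and 4 higher, against 8.33% and 8.26% of all tested probe sets. The arrays of the groups did not overlap, with the labelled double knockout lower, for 18 of the 128 (14.1%, against 10.7% of all tested probe sets), and with it higher for 7 (5.47%, against 11.5%). Below 0 lay 74 of the 128 (57.8%, against 48.4%). With each gene read from its brightest tested probe set, the median log2 difference of the 58 genes was -0.03, against 0.01 over all 11053 tested genes. Probe sets of a gene often disagreed: of 40 genes with several tested, 20 had all their differences on the same side of 0. By limma there were 0 calls among the chaperones when wild type replicate 1 or double knockout replicate 2 or 3 was left out, beside 23, 15 and 17 at an unadjusted p under 0.05, and 1 call without double knockout replicate 1. Over all tested probe sets there were then 97, 53, 34 and 143 calls, in that order. The share of all tested probe sets at the unadjusted p was not computed for these settings, so 23, 15 and 17 cannot be set against it.

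**Figure D1:**
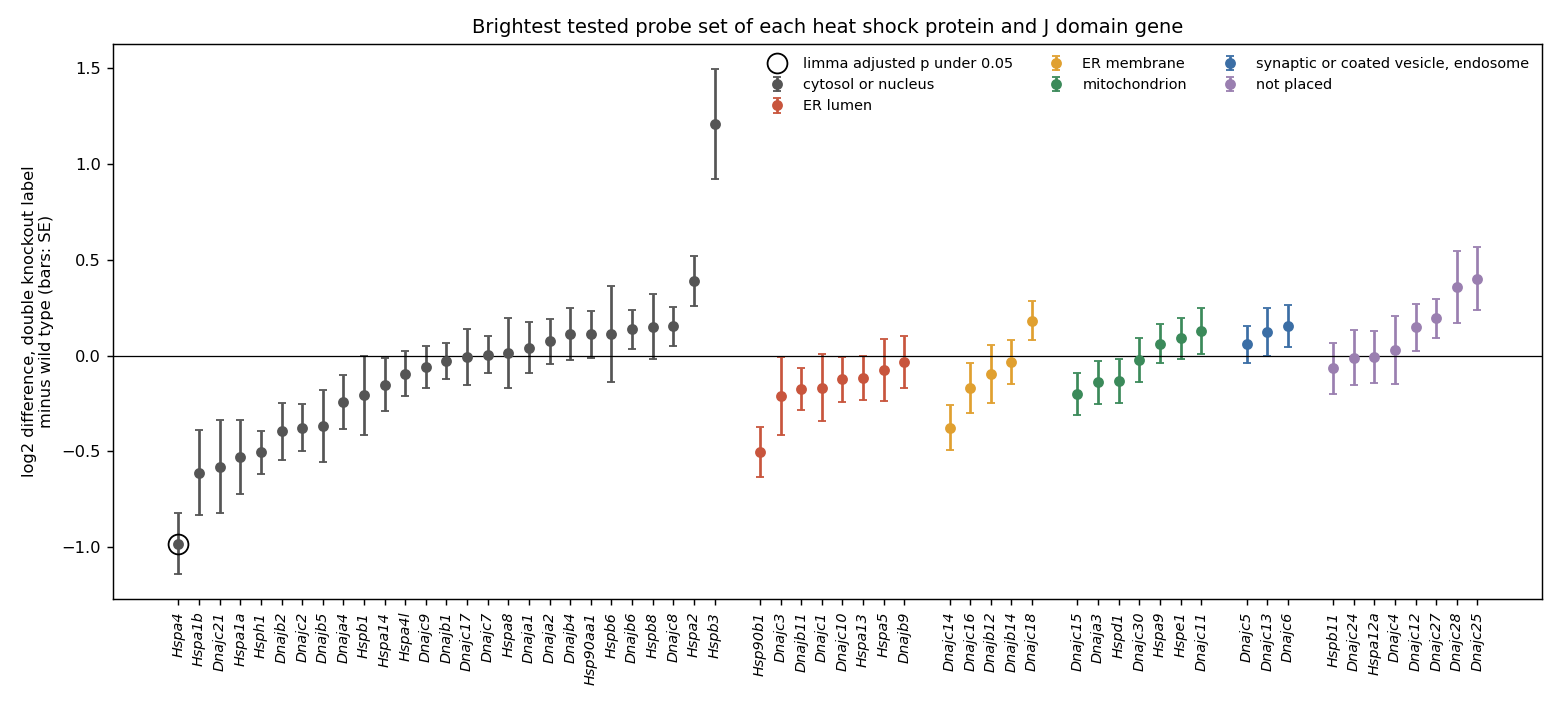
Log2 difference, labelled double knockout minus wild type, for the brightest tested probe set of each of 58 chaperone genes, grouped by compartment. Points are limma estimates, bars their standard errors, and a ring marks an adjusted p under 0.05; Hspa4 lies lowest at -0.98, Hspb3 highest at 1.21, and all 8 ER lumen genes lie below 0.

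Sequences upstream of several members are shown first, because they hold the elements through which the heat and ER stress responses act. Promoters are those of RefSeq on GRCm38.p6, from 250 bases before to 50 after the annotated start, and 57 of the 70 genes had one. Both strands were searched. The heat shock element of 3 units (TTC, GAA and TTC, or GAA, TTC and GAA, with NN between units) was in the windows of Dnajb6, Hspd1, Hspe1 and Hsph1 and in 0.603% of 32851 promoters. The form of 2 units (GAANNTTC or TTCNNGAA), which the longer one contains, was in those of 16 member genes and in 15.1% of promoters. The ER stress element (CCAAT and CCACG with 9 bases of any kind between them) was in those of Hspa5, Hsp90b1 and Dnajc3 and in 0.119% of promoters. The Egr site (GCGTGGGCG or GCGGGGGCG) was in those of Dnaja1, Dnajb2, Dnajc1, Dnajc17 and Hspb8 and in 3.47% of promoters. A match is a description of letters, not a site in use.

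The heat-inducible genes are represented by Hspa1b (chr17:34959189-34959488, minus strand), Hspa1a (chr17:34972107-34972406, minus strand), Hsph1 (chr5:149636287-149636586, minus strand, 1 of 2 windows in the table) and Hspe1 (chr1:55087898-55088197, plus strand), with a heat shock element in capitals. The capitals mark the form of 2 units in Hspa1a and Hspa1b and the form of 3 units in Hsph1 and Hspe1, and a further match of 2 units in Hsph1, 33 bases before this start, is left in lower case.
Hspa1b: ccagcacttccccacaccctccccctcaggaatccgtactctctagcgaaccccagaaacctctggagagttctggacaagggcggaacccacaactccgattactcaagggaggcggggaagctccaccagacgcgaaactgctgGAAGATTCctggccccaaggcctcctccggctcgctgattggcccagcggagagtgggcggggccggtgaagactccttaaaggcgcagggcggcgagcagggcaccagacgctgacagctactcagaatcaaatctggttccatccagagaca
Hspa1a: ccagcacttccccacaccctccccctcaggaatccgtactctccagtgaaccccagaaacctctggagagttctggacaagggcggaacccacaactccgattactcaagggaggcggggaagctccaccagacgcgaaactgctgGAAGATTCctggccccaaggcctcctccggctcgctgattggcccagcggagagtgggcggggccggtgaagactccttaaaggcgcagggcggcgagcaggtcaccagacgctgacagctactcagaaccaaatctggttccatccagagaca
Hsph1: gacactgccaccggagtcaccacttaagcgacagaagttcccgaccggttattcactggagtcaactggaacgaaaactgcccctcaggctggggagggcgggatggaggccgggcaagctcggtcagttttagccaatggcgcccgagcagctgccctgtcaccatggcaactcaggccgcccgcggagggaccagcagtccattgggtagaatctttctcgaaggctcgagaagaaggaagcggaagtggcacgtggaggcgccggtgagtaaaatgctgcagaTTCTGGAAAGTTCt
Hspe1: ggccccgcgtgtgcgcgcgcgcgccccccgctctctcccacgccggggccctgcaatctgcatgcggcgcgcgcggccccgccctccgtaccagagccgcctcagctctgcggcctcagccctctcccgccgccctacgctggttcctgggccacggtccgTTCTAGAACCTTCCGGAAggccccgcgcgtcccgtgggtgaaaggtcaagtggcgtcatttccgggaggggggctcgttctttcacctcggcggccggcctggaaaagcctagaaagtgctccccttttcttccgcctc
The windows of Hspa1a and Hspa1b are identical at 296 of 300 positions (98.7%). In Hsph1 the element of 3 units starts 37 bases after this annotated start. The Hspe1 window shares 285 bases with a window of Hspd1, which is transcribed the other way, so both genes share these elements.

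The ER genes with the ER stress element, in capitals, are Hsp90b1 (chr10:86705395-86705694, minus strand), Hspa5 (chr2:34771840-34772139, plus strand) and Dnajc3 (chr14:118937682-118937981, plus strand). Hsp90b1 has 2 matches, on opposite strands.
Hsp90b1: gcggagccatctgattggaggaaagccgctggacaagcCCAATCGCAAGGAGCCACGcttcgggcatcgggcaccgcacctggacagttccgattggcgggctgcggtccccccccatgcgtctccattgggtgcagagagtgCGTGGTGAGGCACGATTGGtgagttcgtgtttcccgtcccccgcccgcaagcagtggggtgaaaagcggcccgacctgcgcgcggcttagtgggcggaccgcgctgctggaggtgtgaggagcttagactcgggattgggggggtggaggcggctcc
Hspa5: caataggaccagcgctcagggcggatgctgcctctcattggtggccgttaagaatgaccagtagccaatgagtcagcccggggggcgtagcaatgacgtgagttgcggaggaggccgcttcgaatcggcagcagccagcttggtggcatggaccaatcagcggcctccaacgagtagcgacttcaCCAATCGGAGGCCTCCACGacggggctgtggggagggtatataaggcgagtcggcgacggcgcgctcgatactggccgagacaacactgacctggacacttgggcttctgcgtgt
Dnajc3: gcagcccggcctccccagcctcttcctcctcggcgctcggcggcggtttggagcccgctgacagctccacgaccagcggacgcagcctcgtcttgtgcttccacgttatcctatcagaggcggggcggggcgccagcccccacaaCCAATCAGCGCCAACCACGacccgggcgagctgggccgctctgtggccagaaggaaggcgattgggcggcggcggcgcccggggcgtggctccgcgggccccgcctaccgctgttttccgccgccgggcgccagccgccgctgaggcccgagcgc

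Among the cytosolic members Hspa4 fell, which encodes an Hsp110 protein that exchanges the nucleotide of Hsp70. Its probe set 1435194_at read 773, 904 and 658 in wild type replicates 1, 2 and 3 and 464, 387 and 313 in double knockout replicates 1, 2 and 3. Every array of the labelled double knockout lay below every wild type array. The means were 779 ± 123 (SD, n = 3) and 388 ± 75.8 (SD, n = 3), so that it fell by 0.98 on the log2 scale (SE 0.16, limma adjusted p = 0.0243), or 1.97-fold. The probe set 1416147_at read 501, 326 and 328 against 221, 209 and 144, also without overlap (log2 -0.95, SE 0.20, limma adjusted p = 0.0558). The third tested probe set, 1416146_at, overlapped, at 447, 442 and 366 against 412, 504 and 431 (log2 0.10, SE 0.12, limma adjusted p = 0.732). The probe sets of Hspa4 thus disagree, and which transcripts each one reads was not given in the sources used here. The Hspa4 call was lost without wild type replicate 1 (limma adjusted p = 0.0774), double knockout replicate 2 (limma adjusted p = 0.107) or double knockout replicate 3 (limma adjusted p = 0.0968), with a log2 difference between -1.12 and -0.84 whichever array was left out.

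Hsph1, the heat-inducible Hsp110 protein, fell on 1 of its 2 probe sets and missed the threshold on the other. The probe set 1423566_a_at read 1279, 1686 and 1251 in wild type, against 879, 797 and 867 in the labelled double knockout. The groups did not overlap, with means of 1406 ± 244 (SD, n = 3) and 848 ± 44.5 (SD, n = 3), and the probe set fell by 0.71 on the log2 scale (SE 0.13, limma adjusted p = 0.0363). The brighter 1425993_a_at read 1937, 2184 and 2263 against 1614, 1555 and 1319, again without overlap (log2 -0.51, SE 0.11, limma adjusted p = 0.0692). The Hsph1 call held without wild type replicate 2 or 3 and was lost without any of the other 4 arrays (limma adjusted p from 0.0653 to 0.161). Hspa4l, the third Hsp110 gene, had 5 tested probe sets, all below 0, from -0.33 to -0.02. Its brightest, 1439093_at, read 524, 572 and 540.2 against 500.3, 448 and 589 and overlapped (log2 -0.09, limma adjusted p = 0.733). Only 1418253_a_at separated the groups, at 443, 502 and 532 against 415, 411 and 384 (log2 -0.27, SE 0.11, limma adjusted p = 0.237). Of the 10 tested probe sets of these 3 genes, 9 were below 0 and 5 separated the groups downwards. Over all tested probe sets these shares were 48.4% and 10.7%. The 3 genes were put together after their values were seen and include the called probe sets of Hspa4 and Hsph1. The counts are therefore a description and not a test, and probe sets of the same gene are not separate observations.

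**Figure D2:**
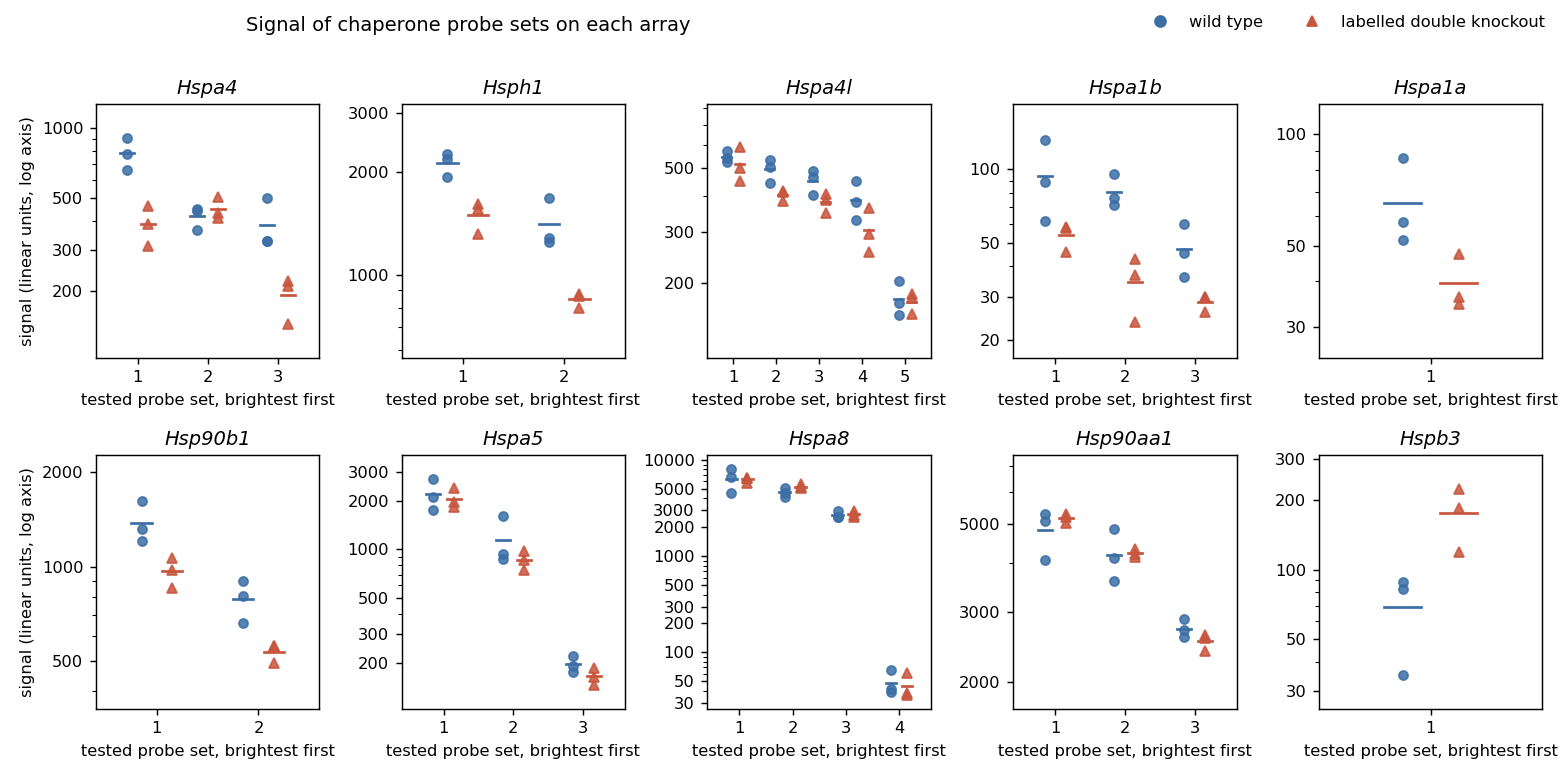
Signal of every tested probe set of 10 chaperone genes on each array (log axis; circles wild type, triangles labelled double knockout, short lines group means). The groups separate downwards at all 4 probe sets of Hspa1a and Hspa1b, both of Hsph1, 2 of 3 of Hspa4 and both of Hsp90b1. They also separate downwards at 1418253_a_at alone of the 5 of Hspa4l. They separate upwards at the probe set of Hspb3 and at 1420623_x_at of Hspa8. They overlap at 3 of 4 of Hspa8, all 3 of Hsp90aa1 and all 3 of Hspa5. Of all tested probe sets 10.7% separate downwards and 11.5% upwards.

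Hspa1a and Hspa1b encode the stress-inducible Hsp70 of the cytosol from near-identical neighbouring genes, so signals of their probe sets cannot be assigned to either gene with certainty. All 4 probe sets were dim and lower in the labelled double knockout without overlap (10.7% of all tested probe sets separated the groups downwards). With genes this alike, they are not 4 separate observations. The probe set 1427127_x_at, annotated to Hspa1b, read 71.4, 95.6 and 76.4 against 42.7, 23.6 and 37.0, with means of 81.2 ± 12.8 (SD, n = 3) and 34.4 ± 9.79 (SD, n = 3). It fell by 0.96 on the log2 scale (SE 0.19, limma adjusted p = 0.0497), just inside the threshold. Its labelled double knockout mean lay under the median signal of every array (36.2 to 39.5). It therefore passed the filter only through its wild type signal, and with no filter its limma adjusted p was 0.195. Leaving out any of the 6 arrays ended this Hspa1b call (limma adjusted p from 0.0613 to 0.168). The other Hspa1b probe sets differed by -0.61 (1452318_a_at; 61.6, 132 and 88.6 against 57.9, 45.9 and 57.6) and by -0.48 (1427126_at; 36.2, 59.6 and 45.4 against 29.95, 26.1 and 29.8). The Hspa1a probe set 1452388_at read 51.6, 86.1 and 57.8 against 36.3, 34.8 and 47.4 (log2 -0.53). None of these 3 passed (limma adjusted p from 0.215 to 0.224). The labelled double knockout signals of 1427126_at also lay under the median of every array, so it too was tested only through its wild type signal. On the log2(signal + 16) scale used here, a fold change of signals this dim is understated.

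The cytosolic genes Hspa8, Hsp90aa1 and Hspa2 did not pass the test. Hspa8, the constitutive Hsp70 that also strips clathrin from vesicles, read 4562, 6622 and 7995 in wild type, against 6498, 6552 and 5841 in the labelled double knockout on its brightest probe set (log2 0.01, SE 0.18, limma adjusted p = 0.980). The other Hspa8 probe sets differed by 0.20, 0.02 and -0.08, and the first of these, 1420623_x_at, separated the groups upwards, at 4178, 4573 and 5107 against 5109.6, 5216 and 5582 (limma adjusted p = 0.399). Hsp90aa1, the inducible cytosolic Hsp90, read 4062, 5308 and 5094 against 5299.6, 5027 and 5205 (log2 0.11, SE 0.12, limma adjusted p = 0.697). On these brightest probe sets wild type replicate 1 was the lowest array, and both differences turned below 0 without it (-0.21 for Hspa8 and -0.0066 for Hsp90aa1) and under quantile normalization (-0.24 and -0.11). Hspa2, an Hsp70 best known from the testis, read 245, 209.6 and 294 against 328, 316 and 344, without overlap (log2 0.39, SE 0.13, limma adjusted p = 0.192).

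J domain proteins of the cytosol gave no call either. Dnaja1 and Dnajb1, the main partners of Hsp70 in refolding, differed by 0.04 (limma adjusted p = 0.911) and -0.03 (limma adjusted p = 0.915) on their brightest probe sets, and Dnaja1 by -0.010 under quantile normalization. Dnajb1 read 655, 730.3 and 726 against 699, 666 and 701, and Dnaja1 read 1821, 2159 and 2616 against 2303, 2267 and 2150.0. In both, the labelled double knockout arrays of these probe sets lay within the wild type range. The other Dnaja1 probe sets differed by -0.11 and -0.13. The first of them, 1416288_at, separated the groups downwards (limma adjusted p = 0.601), as did 10.7% of all tested probe sets. Dnajb2, a neuronal J domain protein that binds ubiquitin chains, read 508, 488 and 461 against 468, 303 and 344 (log2 -0.39, SE 0.15, limma adjusted p = 0.228) and overlapped. Dnajc2, which acts at the ribosome, read 279.5, 278 and 339 against 208, 234 and 235 (log2 -0.38, SE 0.12, limma adjusted p = 0.175), and its second probe set differed by -0.56 (limma adjusted p = 0.125). Both Dnajc2 probe sets separated the groups downwards (10.7% of all tested probe sets did so). Dnajc21, which serves ribosome assembly, read 149, 297 and 133 against 108, 126 and 115 (log2 -0.58, SE 0.24, limma adjusted p = 0.271). Without wild type replicate 2, its highest array, the Dnajc21 difference was -0.25.

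The small heat shock proteins, which bind unfolded proteins without ATP, held the largest positive difference of all members. Hspb3 read 88.8, 82.3 and 35.2 in wild type, against 119.8, 222 and 185 in the labelled double knockout. The groups did not overlap, with means of 68.7 ± 29.3 (SD, n = 3) and 176 ± 51.9 (SD, n = 3). The log2 difference was 1.21 (SE 0.29), or 2.31-fold, and missed the threshold (limma adjusted p = 0.0838). It passed under 1 of 17 alternatives, an added one without the 2 arrays of high choroid plexus signal (log2 1.11, limma adjusted p = 0.0496), and the limma adjusted p reached 0.296 under the others. Hspb1, the stress-inducible small heat shock protein, read 150.04, 203 and 157 against 191, 101 and 152 (log2 -0.21, SE 0.21, limma adjusted p = 0.661). Hspb6 differed by 0.11, and the 2 tested probe sets of Hspb8 by 0.15 and 0.07, all with overlap.

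All 8 genes of the ER lumen lay below 0 on their brightest probe sets, with a median log2 difference of -0.15 and a range of -0.50 to -0.03, but none passed the test and 1 had an unadjusted limma p under 0.05. Hsp90b1, the ER Hsp90 also known as Grp94, read 1208, 1616 and 1322 in wild type, against 1069, 856 and 973 in the labelled double knockout. The groups did not overlap, with means of 1382 ± 210.2 (SD, n = 3) and 966 ± 107 (SD, n = 3), a difference of -0.50 on the log2 scale (SE 0.13, limma adjusted p = 0.105). Its second probe set, 1438040_a_at, read 807, 897 and 661 against 557, 493 and 559, again without overlap (log2 -0.53, SE 0.13, limma adjusted p = 0.0818). It passed under 1 of 18 alternatives, without wild type replicate 3 (log2 -0.65, limma adjusted p = 0.0420), and the limma adjusted p reached 0.390 under the others. Hspa5, the ER Hsp70 known as BiP, read 1748, 2709.6 and 2108 against 2376, 1835 and 1951 (log2 -0.08, SE 0.16, limma adjusted p = 0.852). Its other probe sets differed by -0.35 and -0.23, and all 3 overlapped. Wild type replicate 2 was the highest array at each of them. Dnajc3, the BiP partner that also inhibits the eIF2alpha kinases, read 246, 369.6 and 214 against 283, 188 and 228 (log2 -0.21, limma adjusted p = 0.649). The 3 genes that share the ER stress element thus had differences of -0.50, -0.08 and -0.21. Dnajb11, a cofactor of BiP, differed by -0.17, Dnajc10, a disulfide reductase, by -0.12, Hspa13 by -0.12 and Dnajb9, a target of the unfolded protein response, by -0.03. Dnajc1, a BiP partner that spans the ER membrane, was listed here with the ER lumen. It differed by -0.17 on its brightest probe set, while its dimmer ones differed by 0.14 and 0.51. The last of these had a wild type mean of 33.4, under the median signal of every array (36.2 to 39.5). It therefore passed the filter only through the labelled double knockout. Counting all 20 probe sets of the ER lumen, 15 lay below 0, and 3 separated the groups downwards and 1 upwards. Of all tested probe sets 48.4% lay below 0, and 10.7% and 11.5% separated the groups downwards and upwards.

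Without wild type replicate 2, 5 of the 8 ER lumen genes lay below 0 and the median was -0.10, and Hspa5 stood at 0.09. Of the 5 members of the ER membrane 4 lay below 0, with a median of -0.09. The ER lumen and ER membrane members together had a median of -0.12. Dnajc14, which helps receptors leave the ER, read 301, 364 and 357 against 267, 238 and 269.8 on its brightest probe set (log2 -0.38, SE 0.12, limma adjusted p = 0.162). These arrays did not overlap, but the other Dnajc14 probe sets differed by 0.05 and -0.19 and overlapped.

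The cytosolic and ER members were then compared array by array, as the median over genes of the log2 signal relative to each gene's wild type mean. The list called cytosolic throughout covers genes of the cytosol or nucleus. The 27 tested cytosolic genes, 15 of them below 0 (19 under quantile normalization), had medians of -0.10, 0.07 and -0.01 in wild type replicates 1, 2 and 3 and -0.02, -0.08 and -0.02 in double knockout replicates 1, 2 and 3. The 8 ER lumen genes had medians of -0.15, 0.21 and -0.04 against -0.04, -0.23 and -0.18. Wild type replicate 1 was lowest and replicate 2 highest of the wild type arrays in both sets, and the ER set varied more. The cytosolic minus the ER median was 0.05, -0.15 and 0.03 in wild type, against 0.02, 0.15 and 0.16 in the labelled double knockout. Its means were -0.02 ± 0.11 (SD, n = 3) and 0.11 ± 0.08 (SD, n = 3), a difference of 0.13 with overlap: double knockout replicate 1 lay within the wild type range. The 11 tested genes of a list regulated by Hsf1 had medians of -0.22, 0.09 and 0.06 against -0.01, -0.18 and -0.09, also overlapping, and 7 of them lay below 0 on their brightest probe set. No p is given for these medians, since they are scores over chosen genes.

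**Figure D3:**
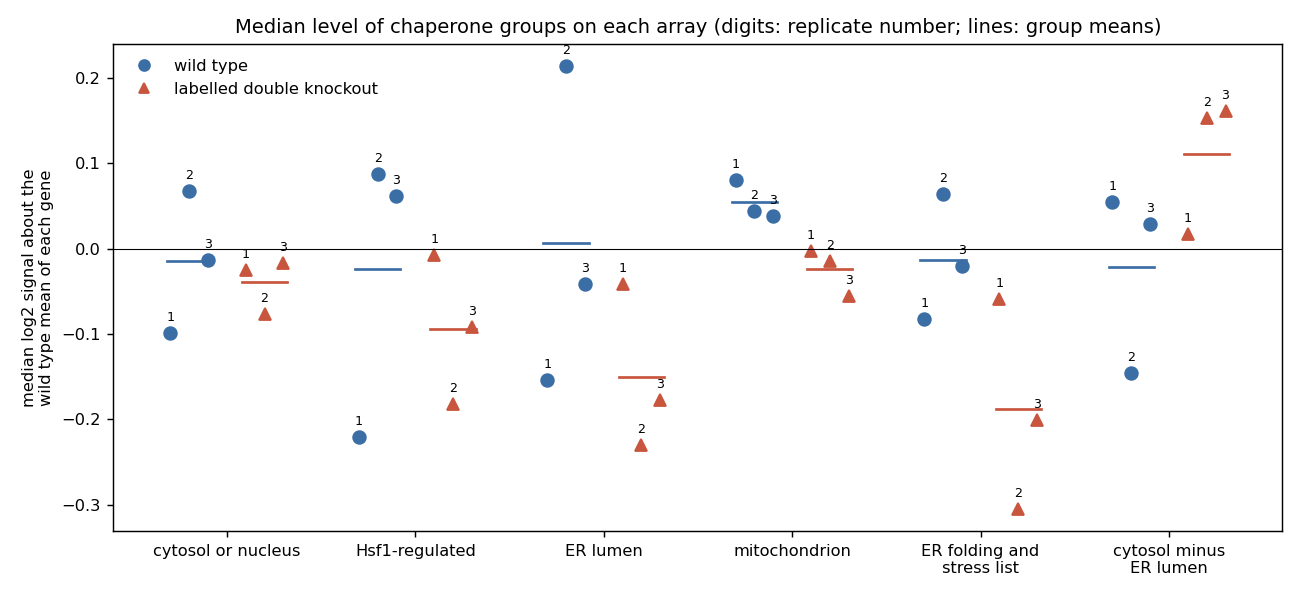
Median log2 signal relative to the wild type mean of each gene, per array, for sets of chaperone genes and for the cytosolic minus the ER lumen median; digits are replicate numbers and lines are group means. The groups overlap for the cytosolic, Hsf1-regulated and ER lumen sets and for the difference, where the means are -0.02 and 0.11. They do not overlap for the mitochondrial set, whose medians lie above 0 on every wild type array (group means 0.05 and -0.02).

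Mitochondrial members differed little. The 7 tested genes, 4 of them below 0, had a median difference of -0.02 and a range of -0.20 to 0.13. Hspd1, the Hsp60 chaperonin, read 1227, 1523 and 1574 against 1391, 1262 and 1265 (log2 -0.13, limma adjusted p = 0.610), and its lid Hspe1 read 1183, 1011 and 1167 against 1174, 1308 and 1097 (log2 0.09, limma adjusted p = 0.730). These neighbours share the heat shock elements shown above, and both overlapped between the groups. The dimmer Hspe1 probe set differed by -0.20 (limma adjusted p = 0.517) and overlapped too. Hspa9, the mitochondrial Hsp70, read 729, 879 and 833 against 844, 823 and 878 (log2 0.06, limma adjusted p = 0.808). Dnajc15, Dnaja3, Dnajc30 and Dnajc11 differed by -0.20, -0.14, -0.02 and 0.13. The median of the set on each array was 0.08, 0.04 and 0.04 in wild type, against -0.0025, -0.01 and -0.06 in the labelled double knockout. These did not overlap, and their group means of 0.05 and -0.02 differed by -0.08. Much of that gap is an offset of the wild type medians. Each gene was centred on its wild type mean, but the median over genes lay above 0 on every wild type array. The median of the gene differences was -0.02.

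The vesicle members overlapped between the groups on their brightest probe sets. Dnajc5, the cysteine string protein that keeps SNARE proteins folded at synapses, read 1093, 1123 and 1239.6 against 1150.2, 1247 and 1202 (log2 0.06, limma adjusted p = 0.805). Its 5 probe sets differed by -0.10 to 0.08. Dnajc6, the neuronal auxilin that brings Hspa8 to clathrin coats, read 1811, 1986 and 2277 against 2234, 2294 and 2205 (log2 0.15, limma adjusted p = 0.513), and Dnajc13, which acts on endosomes, differed by 0.12. Of the 58 genes, 8 were in no compartment list, and 3 of these lay below 0, with a median of 0.09. Among them, Dnajc25 read 40.8, 37.4 and 29.4 against 53.0, 57.8 and 46.3, higher without overlap (log2 0.40, SE 0.16, limma adjusted p = 0.260). Its wild type mean of 35.9 lay under the median signal of every array (36.2 to 39.5). Dnajc25 therefore passed the filter only through the labelled double knockout. Among the remaining cytosolic members Dnaja4 differed by -0.24 and Dnajb5 by -0.37 on their brightest probe sets, each with 3 probe sets below 0, and Dnaja2 by 0.07 with 4 above 0. The 12 genes with no tested probe set were Dnajb3, Dnajb7, Dnajb8, Dnajb13, Dnajc5b, Dnajc5g, Dnajc22, Hspa1l, Hspa12b, Hspb2, Hspb7 and Hspb9, and 39.2 was the highest signal of any of them on any array.

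Other genes of protein folding gave no call in any of 4 lists, where 1.02% of all tested probe sets were called. Of all tested genes 48.5% lay below 0. At an unadjusted limma p under 0.05, 8.84% of them were lower and 8.66% higher. Of the cytosolic cochaperones 20 of 23 were tested, 12 lay below 0 and the median was -0.02, with 2 lower and 0 higher at an unadjusted limma p under 0.05. Tomm34, a cochaperone of Hsp70 and Hsp90, read 416 ± 24.5 (SD, n = 3) and 326 ± 14.8 (SD, n = 3), or -0.34 on the log2 scale (SE 0.10, limma adjusted p = 0.154). Stip1, which links Hsp70 to Hsp90, differed by -0.31 (SE 0.10, limma adjusted p = 0.175). Tomm34 and Stip1 both separated the groups downwards (10.7% of all tested probe sets did so). Of the cytosolic chaperonin and prefoldin subunits, 13 of 13 were tested and 10 lay below 0, with a median of -0.03 and 1 lower at an unadjusted limma p under 0.05. The subunits with the smallest p were Cct4 at -0.32 (limma adjusted p = 0.210) and Cct2 at 0.16 (limma adjusted p = 0.437). The mitochondrial list had 3 of 10 below 0 and a median of 0.17, with 1 lower at an unadjusted limma p under 0.05. Its smallest p were those of Grpel2, a nucleotide exchange factor, at -0.31 (limma adjusted p = 0.245), and Hscb, a J domain protein of iron-sulfur cluster assembly, at 0.34 (limma adjusted p = 0.374).

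The list of ER folding and the unfolded protein response had 19 of 25 below 0 and a median of -0.18, against 48.5% of all tested genes below 0 and a median of 0.01. At an unadjusted limma p under 0.05, 7 of its genes were lower and 3 higher, against 8.84% and 8.66% of all tested genes. Serpinh1, the collagen chaperone Hsp47, read 152 ± 9.59 (SD, n = 3) and 90.7 ± 22.9 (SD, n = 3), which is -0.67 on the log2 scale (SE 0.17, limma adjusted p = 0.0982). Calr, the lectin chaperone calreticulin, read 2132 ± 210 (SD, n = 3) and 1576 ± 139 (SD, n = 3), which is -0.43 on the log2 scale (SE 0.11, limma adjusted p = 0.107). Both separated the groups downwards, as did 10.7% of all tested probe sets. Of the endothelial and mural markers tested 5 of 10 lay below 0, with a median of -0.03. Their sum was lower without overlap (2132 to 2556 against 1785 to 2086), though not without Rgs5. Of the microglia markers tested 11 of 11 lay below 0, with a median of -0.47. The part of these cell types in the values of Serpinh1 and Calr was not tested. The other genes of this list at that unadjusted p, chosen after their values were seen, were lower for the oxidoreductases Pdia3, Pdia6 and Ero1b (-0.33, -0.73 and -0.53), Sdf2l1 (-0.66) and the transcription factor Atf4 (-0.28). They were higher for Herpud1 (0.41) and Edem1 (0.28), which serve ER-associated degradation, and the stress sensor Eif2ak3 (0.32). The list therefore held genes on both sides of 0. Its per-array medians were -0.08, 0.06 and -0.02 in wild type, against -0.06, -0.31 and -0.20 in the labelled double knockout, where double knockout replicate 1 lay within the wild type range.

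**Figure D4:**
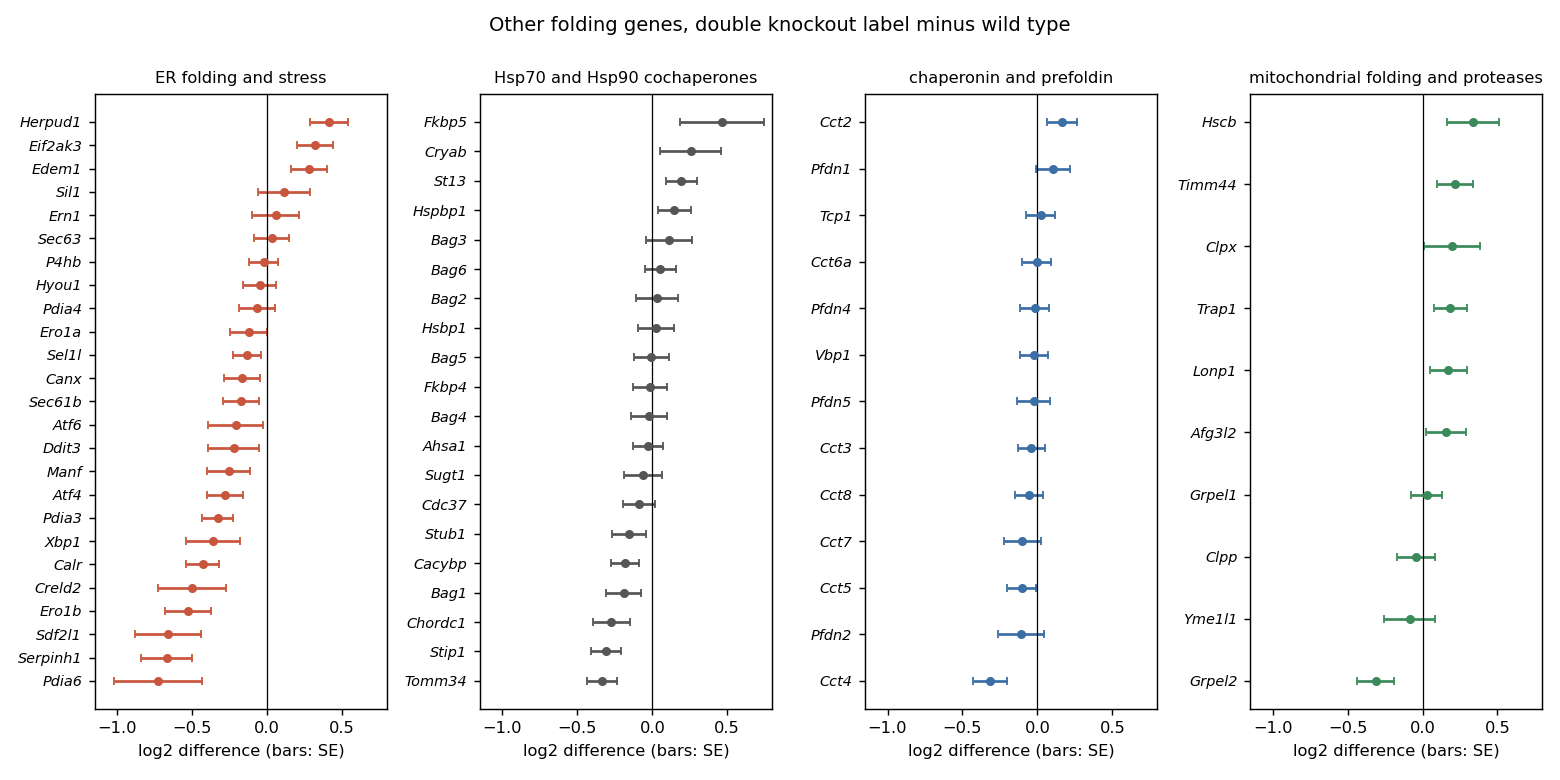
Log2 difference, labelled double knockout minus wild type, with its standard error, for the brightest tested probe set of each gene in 4 folding lists. Of the ER list 19 of 25 genes lie below 0, of the cytosolic cochaperones 12 of 20, of the chaperonin and prefoldin subunits 10 of 13, and of the mitochondrial list 3 of 10. Of all tested genes 48.5% lie below 0.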

How the data were processed

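The labels describe 6 arrays of cortex RNA in 2 groups of 3. The deposited values are linear intensity signals per probe set, summarised and scaled by the authors before deposit (after trimming 2% at each end, every array has a mean of 150). The sources used here do not name the software. All sample columns were used (0 of other series), and identical values were found in 0 pairs of arrays. The platform annotation gave 1 symbol for 34945 probe sets, several for 932 and none for 9160, and 64 controls were left out.

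Signals under 1 (4.35%) were set to 1 and log2(signal + 16) was taken. Probe sets with a mean above the median of all were tested with limma 3.58.1 in R 4.3.3 (lmFit, eBayes with intensity trend, group as the only term, two-sided), with Benjamini-Hochberg adjustment over all 22518. No exact permutation test was used, since with 3 against 3 its smallest p is 0.1. The limma fit was first tested on simulated data. A gene was read from its brightest tested probe set. Figures were drawn with matplotlib 3.10.9.

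The members, compartments and lists were chosen with earlier results of these data known. Genes were named with values if a probe set passed the threshold, if the brightest had an unadjusted p under 0.05, or if they belonged to a set of main chaperones. Of each folding list up to 4 passing genes were named, or else the 2 with the smallest p. Alternatives were other pseudocounts, scalings, filters and variance models, array weights, each array left out, the replicate number as a block, averaging the probe sets of a gene, a wider ER list and a threshold of 0.1. After the data were seen, leaving out 2 pairs of arrays was added.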

Additional observations from a re-analysis of the deposited data

How the results depend on the processing

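The number of calls over all probe sets was 229 as reported, 10 with no filter, 131 with no intensity trend, 12 without the pair of wild type replicate 1 and double knockout replicate 2, 78 without both arrays of high choroid plexus signal, and 34 to 292 when 1 array was left out. The last 2 pairs were chosen after seeing the data. The 3 chaperone calls became 0 by limma with no filter, with no intensity trend and without wild type replicate 1 and double knockout replicate 2 (20, 20 and 18 at an unadjusted p under 0.05), 7 at an adjusted p under 0.1, and 0 to 3 when 1 array was left out (14 to 25 at an unadjusted p under 0.05). The matching shares of all tested probe sets at the unadjusted p were not computed. Hspa4 passed under 12 of 18 alternatives (limma adjusted p from 0.0124 to 0.244), Hsph1 1423566_a_at under 9 of 18 (0.0244 to 0.238) and Hspa1b 1427127_x_at under 3 of 17 (0.0389 to 0.246), each lower under all of them. The cause was not tested, other than that each alternative without an array rests on fewer samples and the one with no filter on more probe sets.

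The ER lumen median lay below 0 under all 20 alternatives, from -0.21 to -0.09. The cytosolic median was -0.08 to -0.01 when 1 array was left out and 0.0044 with no filter. The mitochondrial median of -0.02 became 0.0079 without wild type replicate 1 and double knockout replicate 2 and -0.055 with the mean of probe sets, and was -0.091 to 0.0062 when 1 array was left out. The cytosolic minus ER difference of 0.13 became 0.029 with the mean of probe sets and was 0.04 to 0.18 when 1 array was left out.

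The groups share only replicate numbers: deviations of same-numbered arrays correlated at -0.147, 0.00129 and -0.101. With the replicate number as a block, 182 probe sets and 2 of the chaperones were called, both of Hspa4. With 3 arrays a group and dim signals such as those of Hspa1a and Hspa1b, small differences were not detectable.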
